A study of Mus musculus with 1152 samples.

Results

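Malat1, Neat1, Meg3, Kcnq1ot1, Tug1, Miat and Snhg11 are 7 mouse genes whose long transcripts are known as RNAs that stay largely in the nucleus. They were taken by name, 7 of the 46517 genes in a table of read counts from sorted cells of the adult mouse brain, and described as CPM, the reads of a gene scaled to 1000000 reads of the well. Fluorescent brain cells of male and female C57BL/6 mice were sorted by FACS from a pair of lines, named Pdgfra-H2BGFP and, for the other, Tagl-CREERT2;Ai14. In the first line a green protein carried on histone H2B, and so held in the nucleus, reports Pdgfra, the receptor gene of oligodendrocyte precursors and fibroblasts. In the second line, written Tagl in the labels, a tamoxifen-dependent Cre recombinase switches on the red reporter Ai14. All cells came from vascular fragments captured on beads coated with an antibody to CD31, an endothelial surface protein, and libraries were made with SMART-seq2, which amplifies full-length cDNA from a cell. The labels tie none of the 1152 wells to a line, an animal or a sex, so all wells are 1 sample, no comparison has a replicate check, and no test was made.

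Malat1 accumulates in nuclear speckles, bodies rich in splicing factors, and Neat1 is the RNA scaffold of paraspeckles. Meg3 and Kcnq1ot1 are imprinted: Meg3 is transcribed from the maternal copy of the Dlk1-Meg3 domain, and Kcnq1ot1 from the paternal copy, antisense to Kcnq1. Tug1 and Miat are spliced noncoding RNAs, Miat being known in brain under the name Gomafu as an RNA of nuclear dots in neurons, and Snhg11 is a host gene of small nucleolar RNAs.

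In GRCm38 with the GENCODE vM21 annotation, Malat1 and Neat1 are neighbours on the minus strand of chromosome 19, at chr19:5795690-5802672 and chr19:5824708-5845478, 22035 bases apart, each drawn as 1 exon. Meg3 lies at chr12:109541001-109571726 on the plus strand with 8 merged exons. Kcnq1ot1, at chr7:143203458-143296549 on the minus strand, is 1 exon of 93092 bases. Tug1 is at chr11:3639785-3649673 on the minus strand, Miat at chr5:112213228-112229395 on the minus strand, and Snhg11 at chr2:158375638-158386145 on the plus strand, where the annotation types it as protein coding.

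SMART-seq2 starts its cDNA on stretches of A, so the A-rich sequence of RNAs without an ordinary tail bears on how they are read. The mature end of Malat1 is known to be an A-rich tract written in the genome, held in a triple helix by U-rich stretches before it and cut free of a tRNA-like RNA that follows it. The stretch at chr19:5795918-5796129 of GRCm38, minus strand, is shown with its run of 12 A in capitals (chr19:5795988-5795999). The U-rich stretches, in lower case t, come before it and the tRNA-like sequence after it.
Malat1 3′ region: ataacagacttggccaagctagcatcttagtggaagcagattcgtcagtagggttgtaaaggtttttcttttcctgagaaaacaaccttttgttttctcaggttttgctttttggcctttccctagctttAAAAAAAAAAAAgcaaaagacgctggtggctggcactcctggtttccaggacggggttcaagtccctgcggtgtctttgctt

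In the longest annotated transcript of each gene, runs of 10 or more A were found 10 times in Kcnq1ot1 and once in Malat1, and in none of Neat1, Tug1, Miat and Snhg11. Shorter transcripts were not searched. The longest run in Kcnq1ot1 held 41 A, at positions 69565 to 69605 of its 93092-base transcript (chr7 minus strand). It is shown in capitals with 25 bases either side, from the GENCODE transcript of GRCm38. Whether reads began at such runs was not tested.
Kcnq1ot1 A run: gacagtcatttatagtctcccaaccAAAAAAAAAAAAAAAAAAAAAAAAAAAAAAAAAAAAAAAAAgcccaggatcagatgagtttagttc

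The wells came in 3 sets of 384, named 1025s_182s, 600s_182s and 613s in the table, and held 2561 to 1451280 reads (median 190363). Wells with at least 50000 reads and under 5% of reads in mitochondrially encoded (mt-) genes were put in a class where at least 3 markers of it stood at 100 CPM, such as Pdgfra and Cspg4 for precursors, Gpr17 and Enpp6 for committed precursors, Mog and Opalin for oligodendrocytes or Dcn and Lum for fibroblasts. None of the 7 genes is among these markers. This gave 51 fibroblast wells, 135 wells of oligodendrocyte precursors (OPC), 75 of committed precursors (COP) and 190 of oligodendrocytes, which with 14 wells of other classes form the 465 single-class wells. A further 232 wells met the markers of more than 1 lineage and are called mixed. 2 wells met none. The remaining wells were 158 with at least 50000 reads and at least 5% mt- reads, called mt-rich, and 295 with under 50000 reads. The OPC gate is not a clean boundary: 99 of the 135 OPC wells also had 2 markers of another lineage at 100 CPM, just below the mixed class. The sets are uneven, with 108 of the OPC and 68 of the COP wells in 600s_182s and 30 of the 51 fibroblast wells in 1025s_182s, so ratios are also given within a set where it has at least 5 wells on each side.

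**Figure D1:**
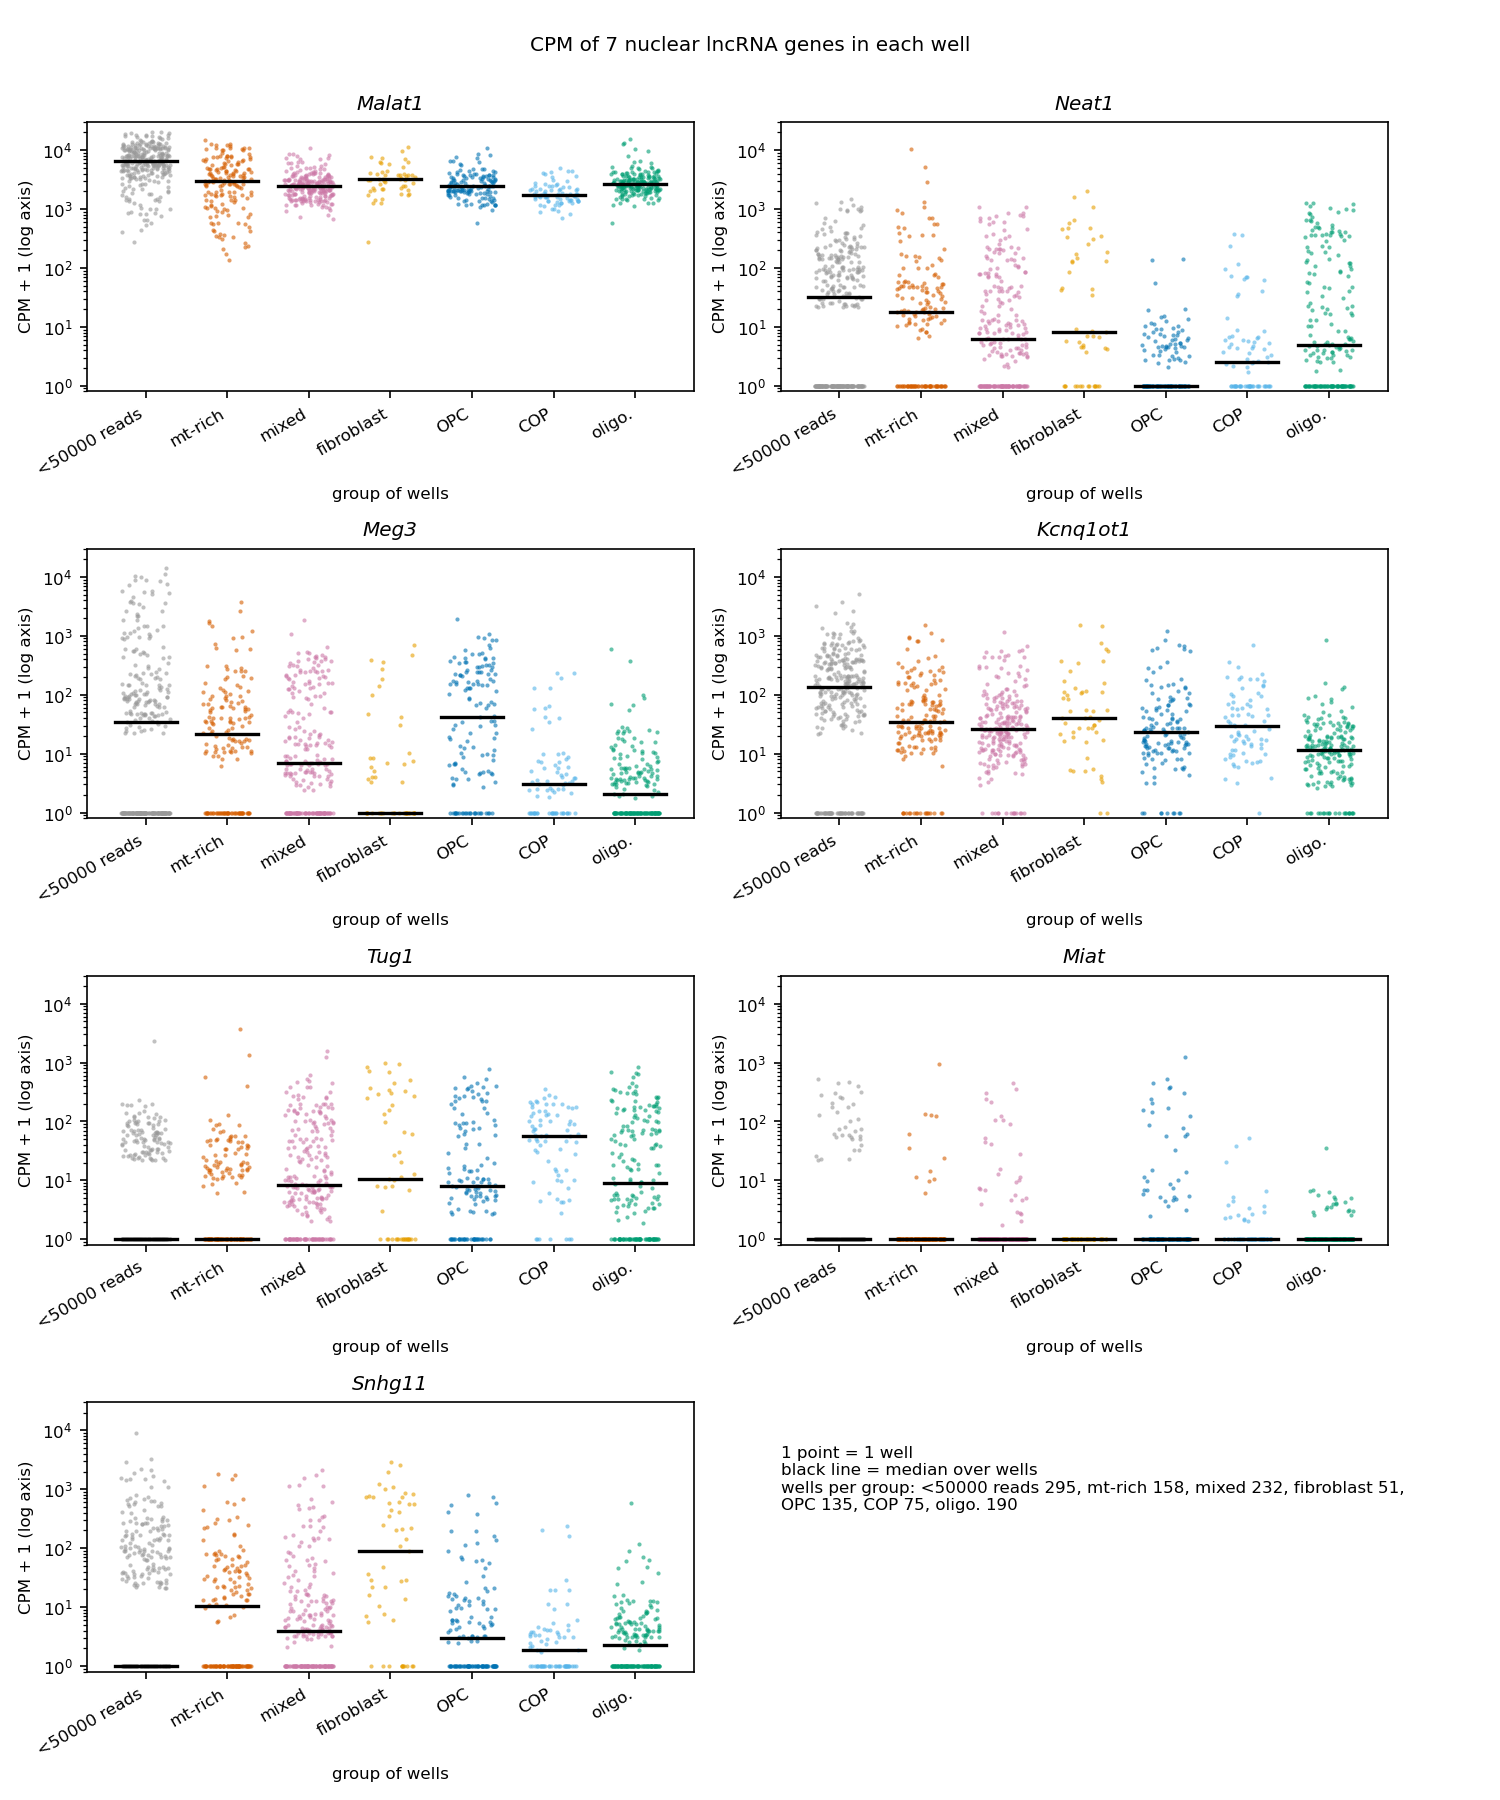
Each point is the level of 1 gene in 1 well, as CPM plus 1 on a log axis, in 7 groups of wells, and the black line is the median over wells. Malat1 is above 0 in every well, Meg3 and Miat have most of their high wells among OPC, mixed, mt-rich and shallow wells, and Snhg11 stands highest in fibroblasts (median 88.4 CPM) among the 4 classes.

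Malat1 RNA was read in each of the 1152 wells, with at least 9 reads. Per kilobase of exon it was the most abundant of the 7 genes by a wide margin: in OPC wells it had 329.5 CPM per kilobase, against 8.42 for Meg3, 7.65 for Tug1, 3.54 for Snhg11, 2.86 for Miat, 0.756 for Kcnq1ot1 and 0.196 for Neat1. It was the 11th most counted gene of OPC wells and took 0.230% of their reads. Summed over wells, Malat1 had 2890 CPM in fibroblasts (exact Poisson 95% interval 2865 to 2916), 2301 CPM in OPC (2287 to 2315), 1707 CPM in COP (1694.5 to 1720.5) and 2522 CPM in oligodendrocytes (2512 to 2533). These intervals, and those below, cover counting error only, and PCR copies are not independent molecules. Per well it spanned 278 to 11338 CPM in fibroblasts (median 3246), 582 to 10811 CPM in OPC (median 2421), 694 to 4933 CPM in COP (median 1755) and 578 to 15336 CPM in oligodendrocytes (median 2705), and the 4 ranges overlap. Over all wells no pair of these classes differed by the 2-fold ratio used for a call. Within 600s_182s fibroblasts had 4054 CPM in 9 wells and COP 1681 CPM in 68 wells, past that ratio. In order of level over all wells fibroblasts led, then oligodendrocytes, OPC and COP, but within 613s fibroblasts (2129 CPM) stood below OPC (2315 CPM) and oligodendrocytes (2646 CPM). This order is not matched for depth: median reads were 287264 in fibroblasts, 384040 in oligodendrocytes, 264256 in OPC and 469801 in COP. At 200000 to 400000 reads the Malat1 medians were 3419, 2919, 2409 and 2291 CPM in the same order of classes. At 400000 to 800000 reads they were 2251, 2301, 1724 and 1694 CPM. Of the rarer classes, 10 endothelial wells had 2443 CPM, 2 choroid plexus wells 4064 CPM, 1 microglia well 2051 CPM and 1 neuron-marked well 189 CPM, from 10 of its 52792 reads.

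Reads assigned to Gm37376 ran beside those of Malat1. This gene is annotated on the opposite strand across 453 bases of Malat1 (6.49% of its exon), and its CPM was 39.4% to 46.0% of that of Malat1 in the 7 groups of wells. The strand setting of the counting is not given in the sources used here, so how reads in the shared bases were assigned is not known. The rest of the Malat1 exon is not shared with Gm37376. The same holds, at lower levels, for the bases shared with Gm26906 opposite Meg3 (6.79% of its exonic bases) and with Morc2a opposite Tug1 (4.96%). It also holds for those shared with Gm26953, which lies opposite 24.3% of the exonic bases of Miat.

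The Malat1 level moved with the depth of a well, being higher in deeper wells up to 50000 reads and lower in deeper wells beyond that. Median Malat1 was 4822 CPM in 49 wells under 10000 reads, 6785 CPM in 97 wells of 10000 to 25000 and 7782 CPM in wells of 25000 to 50000 reads, 3807 CPM at 50000 to 100000, 3637 CPM at 100000 to 200000, 2655 CPM at 200000 to 400000, 2037 CPM at 400000 to 800000 and 1426 CPM above 800000 reads. In OPC the median fell to 1724 CPM in 37 wells of 400000 to 800000 reads, against 3675 CPM in 34 wells of 100000 to 200000 reads. In read counts, the deeper OPC wells had a median of 857 Malat1 reads and the shallower ones 566, a growth of 1.51 times where total reads grew 2.96 times. Over the 128 genes with at least 100 reads in these wells the median growth was 2.64 times, and 7 of the 128 grew less than Malat1. In oligodendrocytes 24 of 154 such genes grew less than Malat1, and in mixed wells 46 of 100. No well held more than 2460 Malat1 reads. Groups compared below differ in depth, and where wells of 50000 to 200000 or of 200000 to 500000 reads alone gave another call, that ratio is printed with the gene. Wells under 50000 reads fall outside both ranges, so their comparison with deeper wells has no such check.

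**Figure D2:**
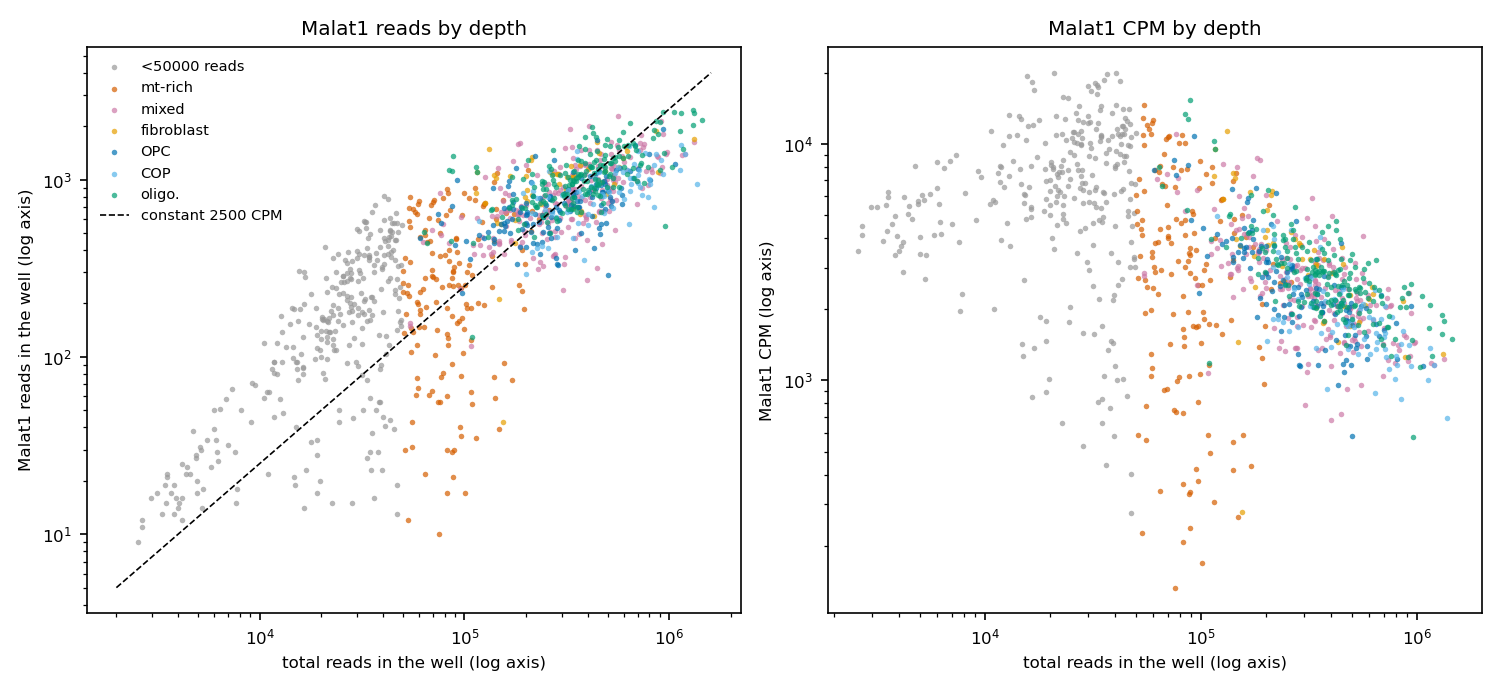
Malat1 reads (left) and Malat1 CPM (right) in each well against total reads of the well, all axes logarithmic, coloured by group. The dashed line marks a constant CPM; the reads of deep wells bend below it, so CPM falls to a median of 1426 above 800000 reads.

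Malat1 in the mt-rich wells bears on whether nuclear RNA was present in them. It was read in all 158, summing to 3570 CPM (3540 to 3601) in mt-rich wells and 2336 CPM (2329 to 2343) in single-class wells, a log2 ratio of 0.61 that is not a call. Its spread was wider, from 133 to 14581 CPM (median 3025) in mt-rich wells and 189 to 15336 CPM (median 2451) in single-class wells, of which 2 of 465 were under 500 CPM. Malat1 stood under 500 CPM in 16 mt-rich wells (10.1%), and all 16 were in 1025s_182s. Within that set Malat1 had 2084 CPM in mt-rich wells and 2735 CPM in single-class wells, within 600s_182s 5863 and 2102 CPM, and within 613s 4114 and 2454 CPM, log2 ratios of -0.39, 1.48 and 0.75. With both sides held to wells of 50000 to 200000 reads the ratio was -0.33. Over all wells the median depth was 83077 reads in mt-rich wells and 343937 reads in single-class wells.

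Of the other genes, Neat1 and Meg3 were called higher in mt-rich wells, 2 of 7 members, where 52.7% of the 11858 genes tested were called in either direction, 15.1% higher and 37.6% lower. A call is a ratio of CPM plus 1 of at least 2 either way, with at least 10 CPM on the higher side. Neat1 had 184 CPM (177 to 191) in mt-rich wells and 82.2 CPM (80.9 to 83.6) in single-class wells (log2 ratio 1.15), with 28.1% of the mt-rich reads in 1 well, without which, and without the top well of the other side, the ratio was 0.77 and not a call. In wells of 200000 to 500000 reads, which hold 5 mt-rich wells, it was 0.54, also not a call. Meg3 had 118 CPM (112 to 124) in mt-rich wells and 45.0 CPM (44.0 to 45.9) in single-class wells (1.37). Its ratio was -0.29 within 1025s_182s, 0.16 within 600s_182s, 1.64 within 613s and 0.02 in wells of 50000 to 200000 reads. It was -1.19 (called lower) in wells of 200000 to 500000 reads, again with 5 mt-rich wells. Without 613s it was -0.47, so the call rests on 613s. Kcnq1ot1 had 104 CPM in mt-rich wells and 54.2 CPM in single-class wells (0.92), just under the threshold. It was called higher with TMM (1.14) and median-of-ratios scaling (1.23), without mt- genes in the total (1.04), by medians over wells (1.01), with a gate of 2 markers (1.2), without 1025s_182s (1.28), within 600s_182s (1.66) and within 613s (1.10), and was -0.14 within 1025s_182s. Snhg11 had 73.0 CPM in mt-rich wells and 52.9 CPM in single-class wells (0.46), and Miat 11.8 and 6.73 CPM (0.72), of which 77.0% of the mt-rich reads lay in 1 well. Tug1 had 66.3 CPM in mt-rich wells and 92.8 CPM in single-class wells (-0.48), but 54.2% of its mt-rich reads were in 1 well, and without the top well on each side its ratio was -1.52, a call lower. Within 1025s_182s and 600s_182s Tug1 was called lower (-3.85 and -1.77), and Snhg11 was called lower in 1025s_182s (-1.84) and higher in 600s_182s (2.57). In wells of 200000 to 500000 reads, a range that only 5 mt-rich wells reach, up to 259329 reads, Tug1 (-1.71) and Snhg11 (-1.10) were called lower. The median over all genes tested was -0.59.

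Marker RNA of several cell types stood in this group. Among the marker lists of the gate, the 6 oligodendrocyte markers had the largest sum, 10995 CPM in mt-rich wells and 14185.5 CPM in oligodendrocyte wells. Mobp alone had 9416 and 4469 CPM in these groups. At least 3 oligodendrocyte markers stood at 100 CPM or more in 111 of the 158 mt-rich wells. The 6 COP markers summed to 2956 CPM, with Bcas1 at 2454 CPM. Of 11 measured neuropil and dendritic mRNAs, such as Camk2a, the kinase mRNA carried into dendrites, 10 were called higher in mt-rich wells and none lower (median 3.10). Over all genes tested 15.1% were higher and 37.6% lower. Camk2a itself had 3829 CPM in mt-rich wells and 272 CPM in OPC. Of 6 genes of neuronal soma and nucleus 5 were called higher (median 2.91), among them Rbfox3, the neuronal nuclear protein NeuN, at 202 CPM in mt-rich wells. Of 77 ribosomal protein mRNAs 47 were called higher. The mitochondrially encoded mRNAs are part of the rule that set these wells apart, and are not counted. The 6 astrocyte markers summed to 5462 CPM in mt-rich wells (26.6 to 29238 per well) and 1115 CPM in OPC, with none at 0, and the 7 neuron markers to 1339 and 211 CPM. At least 3 astrocyte markers stood at 100 CPM in 61 mt-rich wells and 0 single-class wells. For neuron markers the counts were 14 and 1. The gate moved such wells out of the other classes but was not applied to mt-rich wells. Rbfox3, Syt1 and Snap25 are also neuron markers of the gate, so these sums and calls are not independent of it. By set, the neuropil list summed to 7552 CPM in the mt-rich wells of 1025s_182s, where Malat1 was lowest, 3472 CPM in 600s_182s and 5711 CPM in 613s. Their part in the lncRNA values was not tested.

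**Figure D3:**
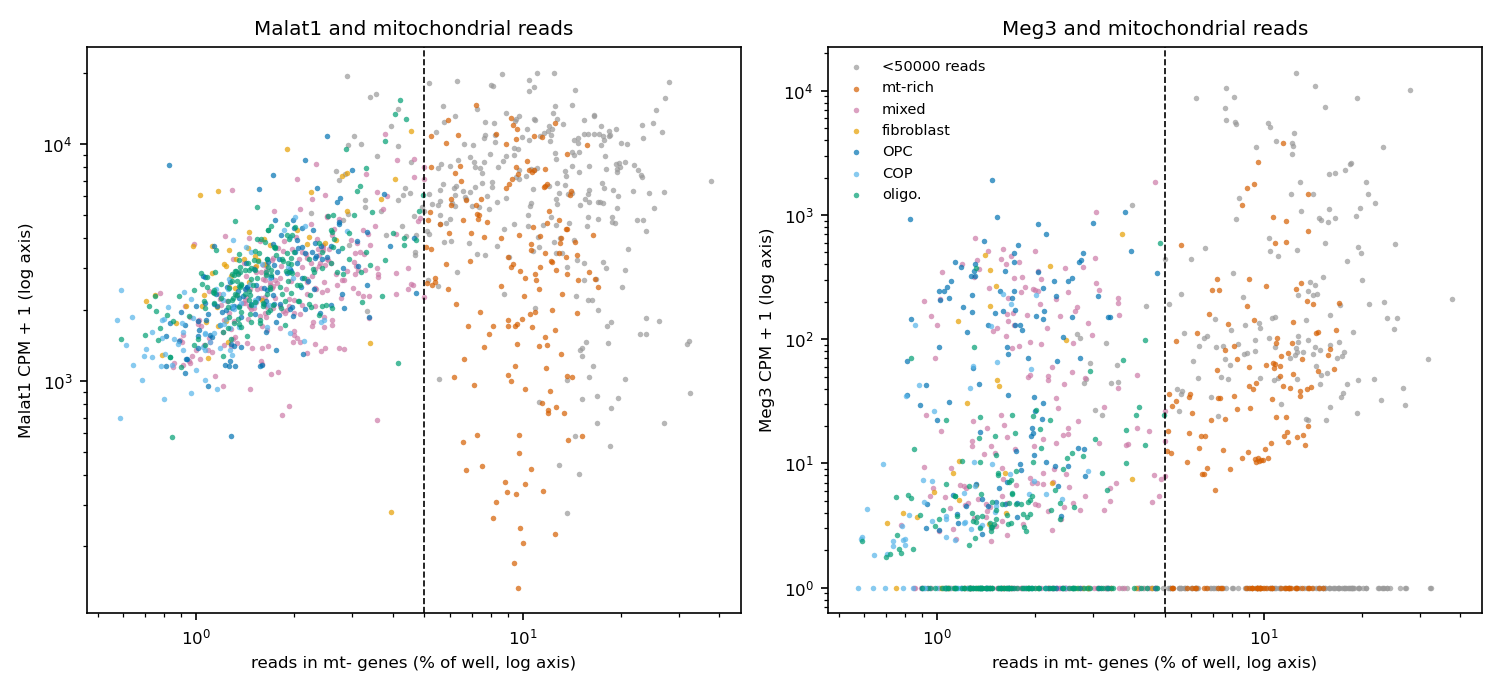
Malat1 (left) and Meg3 (right) as CPM plus 1 against the percentage of reads in mt- genes, log axes, 1 point per well, coloured by group, with a dashed line at 5%. To the right of the line the mt-rich wells spread down to 133 CPM of Malat1, and the wells under 50000 reads reach 19973 CPM.

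Wells under 50000 reads had the highest summed levels of Malat1, Meg3 and Kcnq1ot1 among the 7 groups of wells. Malat1 was called higher, with 7579 CPM (7517 to 7642) in wells under 50000 reads and 2330 CPM (2325 to 2336) in the 699 kept wells (log2 ratio 1.70), and took 0.758% of their reads. It ran from 276 to 19973 CPM (median 6408) in these wells and from 189 to 15336 CPM (median 2442) in kept wells, and 75 of the 295 (25.4%) passed 10000 CPM. In all, 5 of 7 members were called higher and 1 lower, where 56.8% of the 12121 genes tested were called, 9.59% being higher and 47.2% lower among all tested, and the median of all was -0.92. Meg3 had 756 CPM (737 to 776) in wells under 50000 reads and 53.6 CPM (52.8 to 54.5) in kept wells (3.79), reaching 13974 CPM in a well, with 37 wells over 1000 CPM and 135 with no read. Kcnq1ot1 had 304 CPM (291 to 316) in wells under 50000 reads and 57.2 CPM in kept wells (2.39), Snhg11 196 and 53.7 CPM (1.85), and Miat 20.5 CPM and 6.99 CPM (1.42). Neat1 had 129 CPM in wells under 50000 reads and 85.7 CPM in kept wells (0.58). Tug1 was called lower, with 34.5 CPM in wells under 50000 reads and 85.1 CPM in kept wells (-1.28), but with TMM scaling its ratio was -0.88 and with median-of-ratios scaling -0.73, neither a call.

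These values were not alike in the 3 sets. Malat1 ratios were 0.94 in 1025s_182s, 2.18 in 600s_182s and 1.95 in 613s. Meg3 was called higher in 1025s_182s (4.66) and 613s (4.00), while 600s_182s had 97.5 CPM in 35 wells under 50000 reads and 61.3 CPM in kept wells (0.66). Miat was called higher in 1025s_182s (4.25) and 613s (2.61) and lower in 600s_182s (-1.19). Kcnq1ot1 and Snhg11 were called higher within each set, with ratios of 1.95, 1.45 and 2.64 for Kcnq1ot1 and 1.03, 2.41 and 1.89 for Snhg11 in the order of sets above. Thinned to 5000 reads, a depth that 268 of the 295 reached, Kcnq1ot1 had a read in 138 of 268 wells (51.5%, exact Clopper-Pearson interval 45.3 to 57.6) and in 131 of 699 kept wells (18.7%, 15.9 to 21.8). Meg3 had one in 95 of 268 (35.4%) and 113 of 699 (16.2%), and Tug1 in 32 of 268 (11.9%) and 157 of 699 (22.5%). Before thinning the shares were 80.3% and 93.0% for Kcnq1ot1, 54.2% and 64.5% for Meg3 and 35.9% and 73.7% for Tug1. Of these shallow wells 260 had at least 5% mt- reads and 35 had less. Meg3 had 824 CPM in the 260 and 129 CPM in the 35, with ratios to kept wells of 3.92 and 1.25, Kcnq1ot1 319.8 and 152 CPM (2.46 and 1.4), Miat 21.9 and 6.92 CPM (1.52 and -0.0136, not a call) and Malat1 7445 and 8821 CPM (1.68 and 1.92).

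Marker RNA of several cell types stood in the shallow wells as well. The largest sum among the marker lists of the gate was that of the 6 oligodendrocyte markers, 8332 CPM, with Mobp at 5709 CPM. COP markers summed to 2638 CPM, astrocyte markers to 1878 CPM and fibroblast markers to 1490 CPM. At least 3 oligodendrocyte markers stood at 100 CPM in 272 of the 295 wells, a level that 1 read reaches in the shallowest. The count was 146 for endothelial, 113 for fibroblast and 3 for neuron markers. Of 12 neuropil mRNAs 9 were called higher and 1 lower, and of 6 neuronal soma and nuclear genes 5 higher. Over all genes tested 9.59% were higher and 47.2% lower. The 7 neuron markers summed to 644 CPM in wells under 50000 reads (0 to 12742 per well), with none at 0. By set, they summed to 1054 CPM in 1025s_182s, 91.3 CPM in 600s_182s and 462 CPM in 613s, beside Meg3 at 697, 97.5 and 1034 CPM, and the neuropil list to 2554, 722 and 2103 CPM. The 6 choroid plexus markers summed to 2390 CPM (0 to 41495 per well), nearly all of it Ttr at 2293 CPM. Their part in the lncRNA values was not tested.

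Along the oligodendrocyte lineage the genes moved in different directions. COP wells against OPC wells gave 1 member called higher and 3 lower, where 35.7% of 11440 genes were called (11.9% higher, 23.8% lower; median -0.14). Oligodendrocytes against OPC gave 1 higher and 4 lower, where 44% of 11436 genes were called (12.5% higher, 31.5% lower; median -0.39). Oligodendrocytes against COP gave 1 higher and 1 lower, where 34.4% of 10437 genes were called (13.1% higher, 21.3% lower; median -0.22). Fibroblasts against OPC gave 2 higher and 2 lower, where 53.1% of 12452 genes were called (22.2% higher, 30.9% lower; median -0.21). With 7 genes chosen by name, these counts are a description, and what follows is about single genes and not about the 7 as a set.

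**Figure D4:**
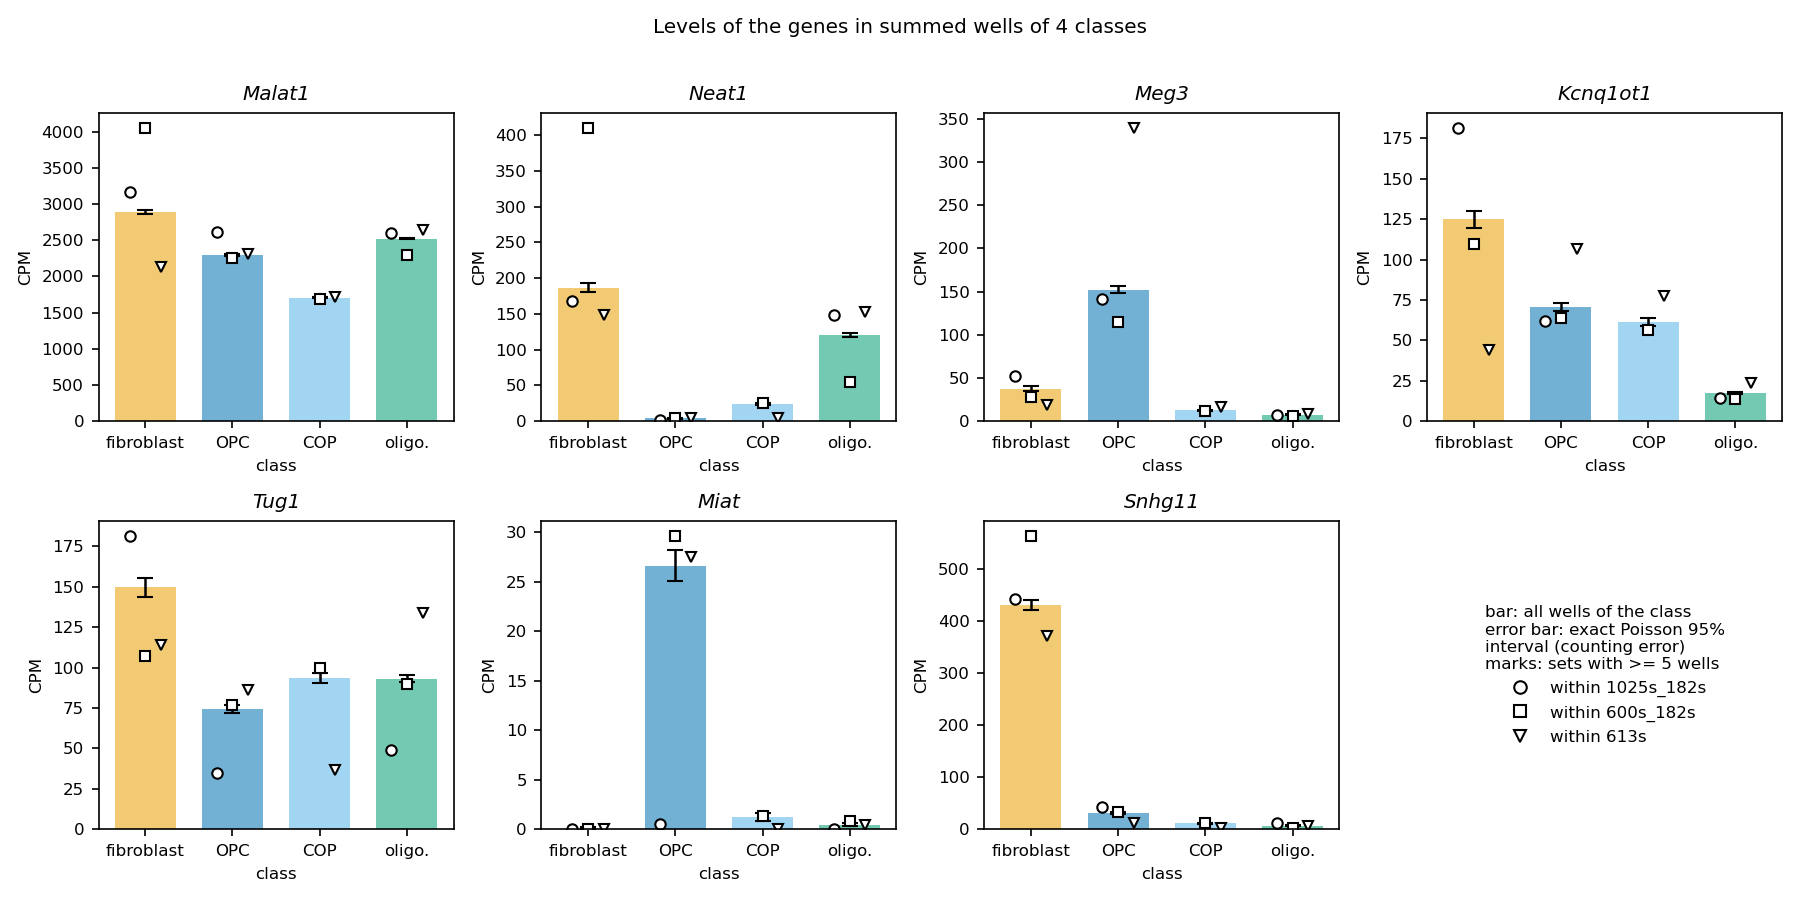
Bars are CPM of each gene over the summed wells of 4 classes, with exact Poisson 95% intervals, and open marks are the value within each set that holds at least 5 wells of the class. Neat1 is lowest in OPC (4.07 CPM), Meg3 (152 CPM) and Miat (26.6 CPM) are highest there, and Snhg11 is highest in fibroblasts (429.7 CPM); the sets differ by more than the intervals.

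Neat1, the paraspeckle RNA, was scarce in OPC and called higher in each other class. It summed to 187 CPM (180.4 to 193) in fibroblasts, 4.07 CPM (3.48 to 4.72) in OPC, 24.2 CPM (22.7 to 25.8) in COP and 120.4 CPM (118 to 123) in oligodendrocytes. The log2 ratios to OPC were 5.21 for fibroblasts, 2.32 for COP and 4.58 for oligodendrocytes, and that of oligodendrocytes to COP was 2.27. Within sets the ratio of oligodendrocytes to OPC was 6.23, 3.38 and 4.83 and that of fibroblasts to OPC 6.40, 6.26 and 4.79 in 1025s_182s, 600s_182s and 613s, while COP to OPC was 2.30 in 600s_182s and 0.02 in 613s, which held 5 COP wells. Neat1 was not even among wells. It ran from 0 to 1997 CPM in fibroblasts (median 7.14), 0 to 141 CPM in OPC (median 0), 0 to 369 CPM in COP (median 1.57) and 0 to 1250 CPM in oligodendrocytes (median 3.87), so all classes overlap at 0, and 18 of 51, 2 of 135, 4 of 75 and 50 of 190 wells passed 100 CPM. Thinned to 50000 reads, 52.9% of fibroblast wells (38.5 to 67.1), 8.89% of OPC (4.68 to 15.0), 24.0% of COP (14.9 to 35.3) and 39.5% of oligodendrocytes (32.5 to 46.8) had a Neat1 read, and before thinning 72.5%, 43.7%, 58.7% and 64.7%. The COP ratio depends on the gate: with the astrocyte list left out of it, OPC wells number 214 and the ratio is 0.80, not a call. The single microglia well had 2987 CPM of Neat1, and 10 endothelial wells had 30.7 CPM.

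Meg3, the imprinted RNA, showed the opposite order along the lineage. It summed to 37.2 CPM (34.4 to 40.2) in fibroblasts, 152 CPM (149 to 156) in OPC, 12.3 CPM (11.2 to 13.4) in COP and 7.32 CPM (6.75 to 7.93) in oligodendrocytes, and was called lower than in OPC in all 3 other classes (-2.0, -3.53 and -4.20 for fibroblasts, COP and oligodendrocytes). Per well it ran from 0 to 707 CPM in fibroblasts (median 0), 0 to 1917 CPM in OPC (median 41.6), 0 to 231 CPM in COP (median 2.09) and 0 to 592 CPM in oligodendrocytes (median 1.05). It passed 100 CPM in 7 of 51 fibroblast wells, 58 of 135 OPC wells, 5 of 75 COP wells and 2 of 190 oligodendrocyte wells. Within sets the oligodendrocyte ratio was -4.05, -4.17 and -5.13 and the COP ratio -3.14 in 600s_182s and -4.31 in 613s. Thinned to 50000 reads, Meg3 was read in 27.5% of fibroblast wells (15.9 to 41.7), 63.7% of OPC (55.0 to 71.8), 30.7% of COP (20.5 to 42.4) and 17.4% of oligodendrocytes (12.3 to 23.5), and before thinning in 47.1%, 81.5%, 66.7% and 52.1%. At 50000 to 200000 reads the fibroblast ratio to OPC was -0.87, not a call. The ratio of oligodendrocytes to COP was -0.67, not a call, and -1.24, called lower, at 200000 to 500000 reads. Neuronal genes stood beside it: the 6 soma and nuclear genes summed to 15.4 CPM in fibroblasts, 314 CPM in OPC, 59.6 CPM in COP and 75.8 CPM in oligodendrocytes, and their part in the Meg3 order was not tested.

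Miat, like Meg3, was highest in OPC. It had no read in 17450605 reads of 51 fibroblast wells, which allows up to 0.172 CPM (3 reads over the group), at least 155-fold lower than the 26.6 CPM (25.1 to 28.2) of OPC. It had 1.18 CPM (0.866 to 1.58) in COP and 0.424 CPM (0.295 to 0.589) in oligodendrocytes, log2 ratios of -3.66 and -4.28, both called lower. In OPC the gene was carried by few wells: 37 of 135 had a read, 12 passed 100 CPM and the highest had 1224 CPM, and 5 wells held 51.9% of the reads. The highest COP well had 51.9 CPM and the highest oligodendrocyte well 34.8 CPM. Its OPC level was 0.499 CPM in the 12 wells of 1025s_182s, 29.7 CPM in 600s_182s and 27.5 CPM in 613s, so in 1025s_182s oligodendrocytes and fibroblasts, both with no Miat read, were not called lower (-0.58 each). That set holds 30 of the 51 fibroblast wells and 12 of the 135 OPC wells, so the 155-fold bound compares wells largely of different sets. Within 600s_182s and 613s, with 9 and 12 fibroblast wells, the fibroblast ratio was -4.94 and -4.83. Of the 12 OPC wells over 100 CPM of Miat, 6 were also among the 58 over 100 CPM of Meg3.

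Snhg11 was highest in fibroblasts. It summed to 429.7 CPM (420.0 to 439.5) in fibroblasts, 30.2 CPM (28.6 to 31.9) in OPC, 10.8 CPM (9.82 to 11.9) in COP and 6.52 CPM (5.98 to 7.10) in oligodendrocytes. The log2 ratio of fibroblasts to OPC was 3.79, and within the 3 sets 3.33, 4.07 and 4.94. Per well it ran from 0 to 2857 CPM in fibroblasts (median 88.4), 0 to 787 CPM in OPC (median 2.05), 0 to 239 CPM in COP (median 0.873) and 0 to 579 CPM in oligodendrocytes (median 1.32). It passed 100 CPM in 25 of 51 fibroblast wells, 12 of 135 OPC wells, 3 of 75 COP wells and 2 of 190 oligodendrocyte wells, so the classes overlap but differ in how many wells are high. Thinned to 50000 reads it was read in 68.6% of fibroblast wells (54.1 to 80.9), 24.4% of OPC (17.5 to 32.6), 13.3% of COP (6.58 to 23.2) and 13.2% of oligodendrocytes (8.70 to 18.8), and before thinning in 78.4%, 53.3%, 53.3% and 51.6%. COP (-1.40) and oligodendrocytes (-2.05) were called lower than OPC. In OPC 27.6% of the Snhg11 reads came from 1 well and in oligodendrocytes 39.7%, and within 613s the oligodendrocyte ratio was -0.95, not a call.

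Kcnq1ot1, the antisense RNA of the Kcnq1 domain, was called in 2 of the 4 class comparisons, lower in oligodendrocytes, with 17.4 CPM (16.5 to 18.3), against 70.4 CPM (67.9 to 72.9) in OPC and 61.0 CPM (58.6 to 63.5) in COP, log2 ratios of -1.96 and -1.76. The ratio of oligodendrocytes to OPC was -2.06, -2.17 and -2.13 within the sets. It had 125 CPM (119.6 to 130.2) in fibroblasts (0.82 to OPC, not a call), where 1025s_182s was called higher (1.54) and 613s lower (-1.26). Its medians were 39.6 CPM in fibroblasts, 22.4 CPM in OPC, 28.4 CPM in COP and 10.5 CPM in oligodendrocytes, and its ratio of fibroblasts to OPC was 1.05, called higher, in wells of 200000 to 500000 reads. Thinned to 50000 reads, Kcnq1ot1 was read in 80.4% of fibroblast wells (66.9 to 90.2), 62.2% of OPC (53.5 to 70.4), 70.7% of COP (59.0 to 80.6) and 40.0% of oligodendrocytes (33.0 to 47.3), and before thinning in 96.1%, 93.3%, 98.7% and 88.9%. Its maxima were 1523, 1222, 702 and 860 CPM in the same classes.

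Tug1 was not called in any of these 4 class comparisons. It summed to 149.6 CPM (144 to 155) in fibroblasts, 74.5 CPM (71.9 to 77.1) in OPC, 93.7 CPM (90.7 to 96.8) in COP and 93.0 CPM (90.9 to 95.1) in oligodendrocytes, and the counting intervals of COP and oligodendrocytes overlap. The ratio of oligodendrocytes to COP was -0.01 over all wells, but 1.84 within 613s and 1.09 without 600s_182s, both called higher, and -2.65, called lower, by medians over wells (8.15 CPM in oligodendrocytes and 56.6 CPM in COP). The ratio of oligodendrocytes to OPC was 0.32, and -2.53, called lower, at 50000 to 200000 reads. The fibroblast ratio of 1.00 sat just under the threshold and passed it with TMM (1.08), with median-of-ratios scaling (1.10) and in wells of 200000 to 500000 reads (1.15). The spread over wells was less alike than the sums: the median was 56.6 CPM in COP, against 7.06 CPM in OPC. Thinned to 50000 reads, 41.5% of OPC wells (33.1 to 50.3), 74.7% of COP (63.3 to 84.0) and 49.5% of oligodendrocytes (42.2 to 56.8) had a read, and before thinning 74.8%, 90.7% and 68.4%. Within 613s, with 5 COP wells, Tug1 was called lower in COP (36.6 CPM) than in OPC (85.8 CPM), with a ratio of -1.21.

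**Figure D5:**
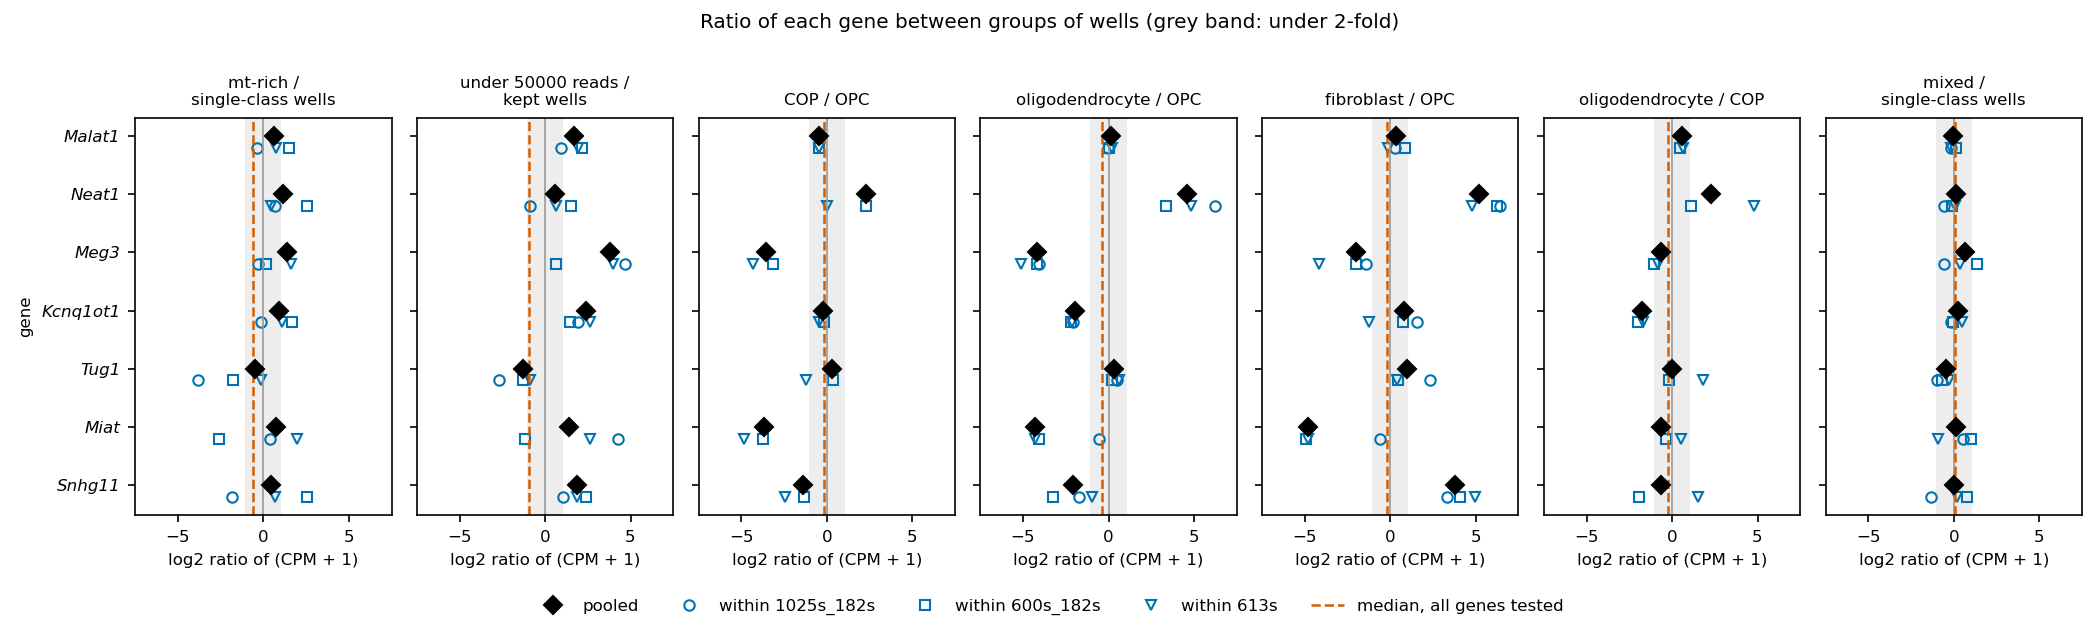
Log2 ratio of CPM plus 1 of each gene in 7 comparisons, the first named group over the second; black diamonds pool all wells, open marks are within sets, the dashed line is the median of all genes tested and the grey band is under 2-fold. Neat1 is to the right and Meg3 and Miat to the left in oligodendrocytes over OPC, and the open marks show how far the sets differ.

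Mixed wells gave no call for any of the 7, where 18.6% of 12159 genes were called against single-class wells (13.4% higher, 5.15% lower). Malat1 had 2303 CPM in mixed wells and 2336 CPM in single-class wells (-0.02), Meg3 72.7 and 45.0 CPM (0.68), Tug1 67.9 and 92.8 CPM (-0.45), Neat1 90.1 and 82.2 CPM (0.13) and Snhg11 52.4 and 52.9 CPM (-0.02). Within 600s_182s Meg3 was called higher in mixed wells (1.37), and within 1025s_182s Snhg11 was called lower (-1.31). Snhg11 was also called higher (1.30) at 50000 to 200000 reads and lower (-1.41) at 200000 to 500000 reads. By the lineages found in them, the mixed wells differed. Meg3 had 147 CPM in the 102 mixed wells with OPC markers and 5.46 CPM in the 29 with mural markers, Neat1 42.5 CPM in those with OPC markers and 149.8 CPM in the 64 with endothelial markers, and Snhg11 183 CPM in the 55 with fibroblast markers. The mixed wells share members between these counts.

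Related genes were measured for comparison. Of 26 other long noncoding RNAs in the table, 7 were called lower and 1 higher in oligodendrocytes than in OPC among 18 past 10 CPM. Over all genes tested 31.5% were lower and 12.5% higher, 44% in either direction. Sox2ot, which overlaps the gene of the stem cell factor Sox2, had 554 CPM in oligodendrocytes and 77.7 CPM in OPC (2.82). Mir124a-1hg, a host of the neuronal miRNA miR-124, had 0.145 and 23.2 CPM (-4.40). In mt-rich wells 8 of 17 were called higher and 4 lower, where 15.1% of all genes tested were higher and 37.6% lower. Rian, the next noncoding RNA of the Meg3 domain, had 66.6 CPM in mt-rich wells and 6.32 CPM in single-class wells (3.21), 23.3 CPM in wells under 50000 reads and 8.20 CPM in kept wells (1.4), and 0.762 CPM in oligodendrocytes and 13.1 CPM in OPC (-3.00). Few wells carried Rian: it was read in 19.6% of mt-rich wells, 14.6% of wells under 50000 reads and 23.7% of OPC wells. In mt-rich wells the 5 listed genes of that domain, Rian among them, summed to a median of 0 and a maximum of 4028 CPM per well. In fibroblasts, where Meg3 was called lower than in OPC, Rian had 19.2 CPM and in OPC 13.1 CPM (0.52, not a call). Rtl1, the retrotransposon-derived gene of that domain, had 12.0 CPM in wells under 50000 reads and 0.243 CPM in kept wells (3.38), and Dlk1 and Dio3 stayed under 10 CPM in all groups. Of the neighbours of Kcnq1ot1, Cdkn1c, the gene of the growth inhibitor p57, had 90.6 CPM in fibroblasts, 9.11 CPM in OPC, 48.9 CPM in COP and 4.16 CPM in oligodendrocytes, called higher in fibroblasts (3.18) and COP (2.30) than in OPC, while Kcnq1 had 0 to 13.6 CPM. Of the 8 paraspeckle proteins, the partners of Neat1, none was called between COP and OPC, 1 was called lower in oligodendrocytes than in OPC and 2 lower in fibroblasts than in OPC. Over all genes tested 35.7%, 44% and 53.1% were called in these comparisons. Tardbp had 31.7 CPM in oligodendrocytes and 75.9 CPM in OPC (-1.23). In fibroblasts and OPC, Pspc1 had 14.7 and 46.5 CPM (-1.60) and Sfpq 56.3 and 116 CPM (-1.03). Of 12 nuclear speckle and splicing proteins, 5 were called higher and 5 lower in wells under 50000 reads, where 9.59% of all genes tested were higher and 47.2% lower. Luc7l3 had 377 CPM there and 81.2 CPM in kept wells (2.20), and Srrm2 772 and 275 CPM (1.48). The lowest of the list was Srsf1, at 19.9 CPM in wells under 50000 reads (-1.63).

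Meg3, Miat and Snhg11 were called lower in COP and oligodendrocytes than in OPC. The promoters of Meg3 and Miat are shown from RefSeq on GRCm38.p6, 250 bases before to 50 after the start. Capitals mark matches on either strand to the TATA box TATAAA, the CCAAT box, the cyclic AMP response element TGACGTCA, the GC box GGGCGG, or an E-box, searched as CAGCTG and in its other form as CACGTG. Meg3 has a pair of entries. The first, at chr12:109540746-109541045 on the plus strand, is the one shown. It held TATAAA at -25 and, overlapping that match but on the opposite strand, at -29. It also held CCAAT at -100 and TGACGTCA at -57. The second, at chr12:109545148-109545447, held none of the motifs and 1 CG pair. Miat, at chr5:112228899-112229198 on the minus strand, held GGGCGG on the opposite strand at -224 and no other. The Snhg11 promoter, which is not shown, held CAGCTG at -61 and no other. Of 32851 promoters, 13.6% held TATAAA, 37.4% CCAAT, 1.79% TGACGTCA, 35.7% GGGCGG, 16.3% CAGCTG and 7.15% CACGTG. The Miat promoter held 25 CG pairs, that of Snhg11 21 and the first of Meg3 13, against a median of 7, and a match describes letters only.
Meg3 promoter: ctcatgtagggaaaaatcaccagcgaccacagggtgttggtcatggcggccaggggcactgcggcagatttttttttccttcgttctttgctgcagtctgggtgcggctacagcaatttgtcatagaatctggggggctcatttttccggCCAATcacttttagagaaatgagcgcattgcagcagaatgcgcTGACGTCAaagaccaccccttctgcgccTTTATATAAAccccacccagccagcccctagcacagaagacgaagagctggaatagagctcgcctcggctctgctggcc
Miat promoter: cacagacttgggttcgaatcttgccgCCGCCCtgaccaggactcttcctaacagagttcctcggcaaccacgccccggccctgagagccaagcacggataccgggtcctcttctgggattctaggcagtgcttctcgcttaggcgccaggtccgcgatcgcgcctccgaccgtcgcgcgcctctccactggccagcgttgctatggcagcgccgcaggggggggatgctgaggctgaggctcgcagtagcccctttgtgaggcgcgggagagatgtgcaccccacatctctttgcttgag

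Genes of the most similar pattern were ranked by Pearson r of log2 of CPM plus 1 over 21 sums of a class and a set, which share libraries and depth, among 4960 genes averaging at least 50 CPM. Malat1 was nearest to Gm37376 (r = 0.99), Neat1 to Apod (0.89), a lipocalin gene, Meg3 to Erdr1 (0.80), Kcnq1ot1 to Gm28268 (0.81), Tug1 to Tbc1d22b (0.90), Miat to Gm3764 (0.77) and Snhg11 to Col1a2 (0.90), a collagen chain that is itself a fibroblast marker of the gate. Among the 7 themselves the closest pair was Meg3 with Miat (0.80), then Meg3 with Kcnq1ot1 (0.75).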

How the data were processed

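The deposited table holds whole-number counts of reads per gene, not normalized. The submitters' processing notes list the builds GRCm38 and mm10 and, as tools, featureCounts from Subread (1.4.6-p5), SAMtools (0.1.18) and TopHat2 (2.1.1). Annotation, strand setting and treatment of multiply matching reads: not given in the sources used here. Counts were divided by the well total (CPM). Group levels are CPM of summed counts with exact Poisson 95% intervals, and shares have exact Clopper-Pearson 95% intervals. Ratios are log2 of (CPM + 1), and a call needs a ratio of at least 2 and at least 10 CPM on the higher side. Detection was compared after thinning each well to 50000 reads, or 5000 for shallow wells. The 7 members were named by rule, companion genes as list extremes or where they bear on a member, and of the 3 most similar genes of each member the first is printed; Camk2a and Srrm2 were picked after their values were seen. Members and lists were chosen with earlier results of these data known. Endothelial and microglia wells and wells that met no class numbered under 20, so those planned comparisons were not run. The ratio and interval code was tested on simulated data. Python 3.11.15, pandas 2.3.3, SciPy 1.17.1, edgeR 4.0.16 and DESeq2 1.42.0 (scaling factors only) were used. Alternatives covered scaling, pseudocount, filters, gates, depth ranges, sets and single wells. The A runs of Meg3 are not reported here.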

Additional observations from a re-analysis of the deposited data

How the results depend on the processing

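Over 1148 member values under alternatives, 1044 kept their direction and 6 called values reversed. Meg3 in mt-rich over single-class wells was -0.29 within 1025s_182s, -0.47 without 613s and -1.19 in wells of 200000 to 500000 reads (5 mt-rich wells). In wells under 50000 reads over kept wells, Miat was -1.19 within 600s_182s and -0.0136 for wells under 5% mt-, and Snhg11 was -1.68 by medians over wells. Of 7 members, medians over wells called 2 in COP, 2 in fibroblasts and 2 in oligodendrocytes over OPC. In mt-rich over single-class wells, 4 were called with median-of-ratios scaling, 4 with a gate of 2 markers, 4 without 1025s_182s, 6 within 600s_182s (12 mt-rich wells), 1 at a minimum of 100000 reads and 1 at 50000 to 200000 reads. In mixed over single-class wells, 2 were called with a gate of 2 markers, and 1 each with a gate at 50 CPM, within 1025s_182s, within 600s_182s, and at 50000 to 200000 and 200000 to 500000 reads. In oligodendrocytes over COP within 600s_182s, 4 were called. The share of all genes called was not computed under the settings above. These counts therefore have no background and cannot be read as a result about the 7 members. With genes down to 1 CPM added to the total, 37.4% of genes were called in wells under 50000 reads. The 10 CPM needed for a call was kept, so that share has a larger total and no added calls. The cause of these changes was not tested. Median-of-ratios scaling moved log2 ratios by up to 0.56 and TMM by up to 0.42. The depth ranges, the removal of top wells, the gate without the astrocyte list and the split of shallow wells were chosen after seeing the data. No paired analysis was possible because all wells are 1 sample.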
